A study of Homo sapiens with 26 samples.

Results

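The ribosome biogenesis genes described here are 55 named genes that encode the machinery of ribosome production. All 55 were among the 58039 genes of a count table of HCT116 cells, and all 55 passed the filter on low counts that left 17198 genes tested. HCT116 is a human colorectal carcinoma cell line. RNA was sequenced from 26 libraries in 9 groups. The labels name cells with a knockout of CDK8 (CDK8KO), of CDK19 (CDK19KO) or of both (DKO), each as sublines C1 and C2, with 3 libraries per subline. DKO-C1 cells given JQ1 had 2 libraries, control cells given JQ1 (HCT116+JQ1) had 3, and untreated control cells (HCT116) had 3. CDK8 and CDK19 are alternative kinases of the Mediator complex, and JQ1 is a small molecule that releases BET proteins from acetylated chromatin. Each genotype rests on a pair of sublines. The untreated DKO columns of the table carry clone numbers 1 and 3, and those of clone 3 were taken as DKO-C2 because no other untreated DKO samples remained. No source used here gives the edited sites or the dose and duration of JQ1.

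Ribosome production starts in the nucleolus, where RNA polymerase I transcribes a long precursor of ribosomal RNA. Small nucleolar ribonucleoproteins (snoRNPs) of the box C/D and box H/ACA kinds guide its methylation and pseudouridylation, and separate sets of processing factors cut and fold it into the small and the large subunit. Growing cells, colon carcinoma cells among them, run this pathway at a high rate, and MYC is a known activator of many of its genes.

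Levels are in CPM, counts scaled by the library size and its TMM factor, and fold changes are log2 ± standard error (SE). A gene was called where the quasi-likelihood test of edgeR, with Benjamini-Hochberg adjustment over all 17198 genes, gave an adjusted p under 0.05, two-sided. The labels do not say whether the libraries of a group are separate cultures, so p-values measure only the spread between libraries within a group. The spread between sublines of a genotype enters neither SE nor p-values of the genotype comparisons. For control cells the labels name no sublines. Each library held 17700864 to 19093094 gene counts. The epithelial markers EPCAM, KRT8, KRT18, KRT19, CDH1 and CDX2 were present in every library, at 13.7 CPM or more. VIL1 and CDH17, also epithelial, stayed at or below 0.284 CPM. Of 8 markers of fibroblasts, leukocytes and endothelium, COL1A1 stood at 13.5 to 30.4 CPM and the other 7 at or below 0.485 CPM. CDK8 RNA was at -0.17 ± 0.0473, adjusted p = 0.00441 in CDK8KO and -0.41 ± 0.0477, adjusted p = 2.07e-09 in DKO. CDK19 RNA was at -0.32 ± 0.0658, adjusted p = 0.000163 in CDK19KO and 0.39 ± 0.0631, adjusted p = 1.31e-06 in DKO, each against control cells. CDK19 was lower in CDK19KO-C1, at 17.5 to 20.3 CPM (-0.53), and not called in CDK19KO-C2, at 23.8 to 26.9 CPM (-0.10, edgeR adjusted p = 0.279), against 24.4 to 29.9 CPM in control cells. Such partial or opposite levels cannot check the labels. When libraries were scaled by their ERCC spike-in instead, the median of all tested genes moved to -1.24 in CDK8KO, -1.67 in CDK19KO and -0.92 in DKO against control, and to -0.27 and -0.39 for JQ1 in DKO-C1 and in control cells. Rises and falls below are therefore those relative to the median gene. Only DKO and control samples, with or without JQ1, carry that spike-in in their labels, and single knockouts do not. Single knockout libraries nevertheless held 423954 to 807887 ERCC counts, against 193685 to 233534 in untreated control cells.

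The 8 DKO libraries, JQ1-treated ones included, differed from the other 18 in which genes held their counts, and this touches members directly. Processed pseudogenes took 0.182% to 0.208% of gene counts in DKO libraries, against 2.24% to 2.76% in all others. In DKO against control, 1172 of 1346 tested processed pseudogenes were lower. A second difference concerned genes overlapped by another gene that has no row in the table. The search for such overlaps covered GENCODE release 29 and the same strand only. Of the 38 tested genes overlapped in this way over at least 50% of their exonic bases, 36 were lower in DKO against control and 0 higher (edgeR, median -3.91). 10 of the same 38 were lower and 6 higher in CDK8KO, 9 lower and 10 higher in CDK19KO, and 2 lower and 0 higher in DKO-C1 against DKO-C2.

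NOP2, an RNA methyltransferase of the large subunit pathway (ENSG00000111641, build hg38, chr12:6556863-6568691, minus strand), is such a gene, with 54.4% of its exonic bases inside AC006064.6. It had 4.18, 3.39 and 4.35 CPM in DKO-C1, 3.20, 2.45 and 3.65 CPM in DKO-C2 and 2.96 and 3.41 CPM in DKO-C1 with JQ1, against 173, 185 and 188 CPM in control cells. In counts, the 8 DKO libraries held 45 to 81 and the other 18 held 2858 to 3937, with no overlap. NPM1, the nucleolar chaperone nucleophosmin (ENSG00000181163, chr5:171387116-171411137, plus strand), moved the other way. It had 1573, 1370 and 1441 CPM in DKO-C1 and 1489, 1268 and 1441 CPM in DKO-C2, against 948, 975 and 953 CPM in control cells. The 44 NPM1P pseudogenes in the table summed to 14.04 to 20.4 CPM in DKO libraries and to 442 to 577 CPM in the other 18. NPM1 and these pseudogenes together came to 1282 to 1625 CPM in DKO libraries and 1270 to 1609 CPM in the others, and the log2 ratio of the sums in DKO over control was -0.03. The counts of NOP2 (-5.69 ± 0.0590, adjusted p = 9.64e-42) and NPM1 (0.58 ± 0.0490, adjusted p = 6.49e-13) in DKO against control are therefore given as measured and not read as expression.

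**Figure D1:**
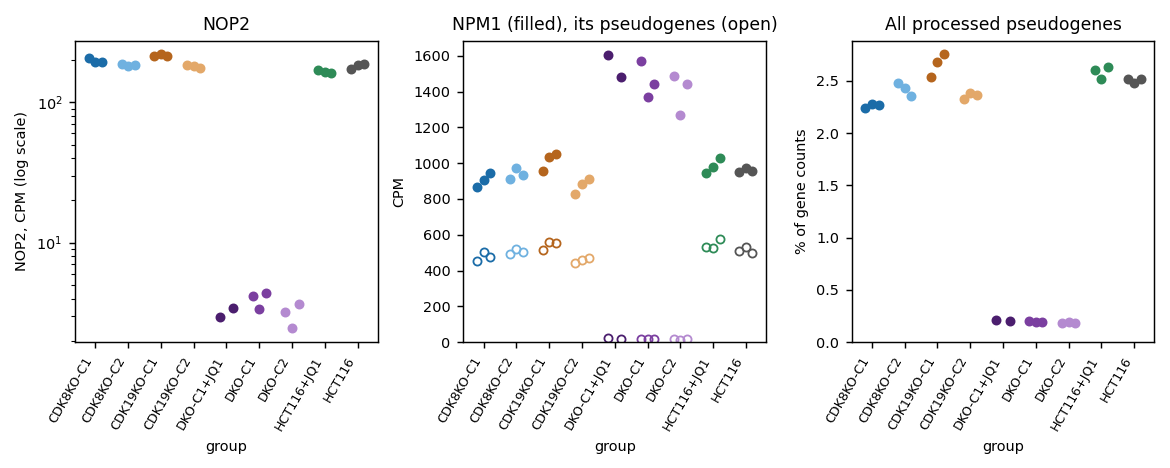
CPM of NOP2 (left, log scale), CPM of NPM1 and the sum of its pseudogenes (middle) and the share of gene counts on all processed pseudogenes in percent (right), each by group, 1 point per library. The 8 DKO libraries stand apart in all 3 panels, with NOP2 at 2.45 to 4.35 CPM against 162 to 219 CPM in the other 18.

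13 members carry a mark for shared sequence or overlap. RRN3, which links RNA polymerase I to its promoter, shares 23.4% of its sequence (in words of 50 bases) with other genes, namely 20.3% with RRN3P2, 18.7% with AC009093.9 and 9.85% with RRN3P1, which share words among themselves, and the share was 18.6% for NPM1 and 50.1% for NOP2. 11 members overlap exons of another gene on their own strand, in NOP56, NOP58, DKC1, GNL3, BOP1 and EBNA1BP2 mostly of small RNA genes, and also NOP2, RRS1, WDR74, GRWD1 and HEATR1. RRS1 is overlapped over 11.4% of its exons by AC009879.2, which also has no row in the table. NHP2 shares 5.56% with the processed pseudogene NHP2P1, which had 1 to 6 counts in DKO libraries and 183 to 312 in the others. NOB1 shares 6.93% with the processed pseudogene AC098859.1. DDX10, DDX18, MRTO4 and NOP56 each share 1.469% to 2.265% with a processed pseudogene. Of these genes NOP56 alone is marked, so unmarked members are not free of pseudogene copies. No source used here gives the strand setting of the counting, so the 24 members with overlaps on the opposite strand are uncertain as well. The 42 unmarked members are also counted separately where DKO is set against control. Some of them overlap exons on the opposite strand and share this uncertainty, such as NOP16 (19.95% of its exonic bases), POLR1C (18.18%) and NLE1 (12.59%).

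A promoter motif was more frequent among the members than among tested protein-coding genes. The members were chosen with earlier results of these data known, and the other pathway genes were not searched for this motif. The E-box CACGTG, the preferred site of MYC with its partner MAX, reads the same on both strands. It lay within 250 bases before to 50 bases after the start in 19 of the 45 members with an entry in RefSeq (GRCh38.p14), which is 42.2%. The same letters stood in 1032 of 10289 promoters of tested protein-coding genes (10.0%) and in 2548 of all 35116 promoters (7.26%). NOP58, NOLC1, RRP12, RRS1, RRP1B, BOP1, POLR1E, TCOF1, DDX18 and URB2 had no entry. The sequences below are those of the 4 members with an E-box and the largest falls under JQ1 in control cells, and of NOP10, added after its values were seen because its promoter holds 2 E-boxes and its RNA was not called under JQ1. They run 5′ to 3′ with the E-box in capitals. NAT10 (chr11:34105379-34105628, plus strand) and NOP10 (chr15:34343137-34343386, minus strand) are shown over the 250 bases before the start. NLE1 (chr17:35142274-35142303, minus strand), MYBBP1A (chr17:4555340-4555369, minus strand) and WDR43 (chr2:28894658-28894687, plus strand), whose E-boxes follow the start, are shown over 30 bases.
NAT10: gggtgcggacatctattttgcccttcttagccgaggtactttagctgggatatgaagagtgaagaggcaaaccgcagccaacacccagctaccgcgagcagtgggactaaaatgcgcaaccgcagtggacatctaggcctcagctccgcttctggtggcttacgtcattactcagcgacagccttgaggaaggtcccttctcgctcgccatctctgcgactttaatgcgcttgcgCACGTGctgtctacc
NOP10: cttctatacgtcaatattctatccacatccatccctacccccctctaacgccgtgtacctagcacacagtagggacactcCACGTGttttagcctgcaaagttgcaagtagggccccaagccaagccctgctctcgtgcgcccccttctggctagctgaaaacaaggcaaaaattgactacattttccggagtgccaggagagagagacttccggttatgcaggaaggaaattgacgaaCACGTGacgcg
NLE1: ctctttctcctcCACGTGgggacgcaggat
MYBBP1A: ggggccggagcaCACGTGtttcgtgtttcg
WDR43: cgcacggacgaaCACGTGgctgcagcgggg
A match of letters is a description and not a shown binding site. The median fold change under JQ1 in control cells was -0.23 over the 19 members with the E-box and -0.31 over the 26 without. In DKO against control it was -0.32 with and -0.36 without. The median of the members with these letters was thus the less negative one in both comparisons.

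A second feature, found in a minority of members, was the hosting of small nucleolar RNA genes. 9 of 55 members (16.4%) hold at least 1 such gene of GENCODE release 29 inside their own gene and on the same strand, against 229 of 13198 tested protein-coding genes (1.74%). GNL3 holds 6, NOP56 5, NOP58 4, NCL and WDR43 3 each, DKC1 and TSR1 2 each, and POLR1C and URB1 1 each.

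In control cells the members spanned 9.82 to 351 CPM per kb of exonic length. NCL (nucleolin, a nucleolar RNA-binding scaffold) was highest at 351 CPM per kb, ahead of NPM1 (250.5) and NOLC1 (206), a scaffold of snoRNPs. Control libraries also held 497.7 to 533.1 CPM on the NPM1P pseudogenes, and NPM1 with these came to 384.6 CPM per kb of NPM1, above NCL, so the order of NCL and NPM1 depends on where those counts belong. FBL, the methyltransferase of box C/D snoRNPs, led its class at 143 CPM per kb, and NOP10, a small core protein, led the box H/ACA class at 128. GNL3, the GTPase nucleostemin, led the large subunit factors at 88.3 and WDR43, a small subunit processome protein, led the small subunit factors at 60.5. The RNA polymerase I class had the lowest top level of all classes. Its highest were POLR1E, a polymerase subunit, at 36.1 and RRN3 at 35.2, a difference within the spread of the 3 libraries.

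Across the knockouts and treatments the members moved mostly downward, and by different amounts. The median over the 55 members of a library's log2 level minus the control mean (pseudocount 0.5 CPM) was -0.58 and -0.57 in DKO-C1 with JQ1. It was -0.31, -0.38 and -0.32 in DKO-C1 and -0.34, -0.39 and -0.35 in DKO-C2. HCT116+JQ1 libraries stood at -0.26, -0.27 and -0.24. These groups did not overlap with each other, apart from DKO-C1 and DKO-C2. CDK8KO libraries lay between -0.14 and -0.10, CDK19KO-C2 between -0.10 and -0.07, and CDK19KO-C1 between 0.00 and 0.07, while the 3 control libraries were at -0.09, 0.07 and 0.02. Control replicate 1, the lowest control, thus overlapped with CDK19KO-C2, and the SD within groups was 0.0355. All 17198 tested genes had medians between -0.03 and 0.00 in every library. The 111 other genes of the pathway went the same way as the members, at -0.41 and -0.47 in DKO-C1 with JQ1, -0.32 to -0.26 in DKO and -0.20 to -0.15 in HCT116+JQ1. In bulk RNA, less of a transcript per cell and fewer cells that carry it cannot be told apart.

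**Figure D2:**
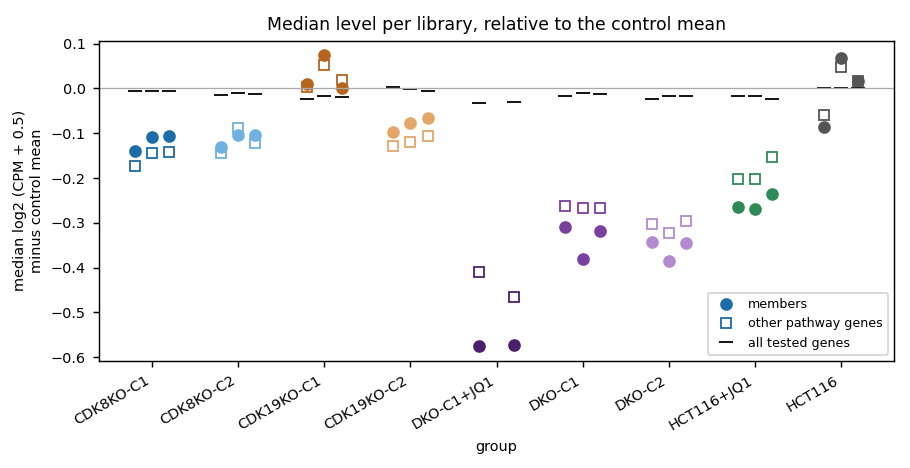
Median of log2 (CPM + 0.5) minus the control mean, by group, 1 symbol per library, for the 55 members (filled circles), 111 other pathway genes (open squares) and all tested genes (dashes). Members in DKO-C1 with JQ1 lie at -0.58 and -0.57, below every other group.

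MYC itself, which is not a member, had 282 ± 4.68 CPM in CDK8KO-C1 and 367 ± 12.4 in CDK8KO-C2 (mean ± SD, n = 3). It had 748 ± 31.4 in CDK19KO-C1 and 326 ± 6.84 in CDK19KO-C2. DKO-C1 had 150.3 ± 0.921, DKO-C2 138 ± 7.37 and DKO-C1 with JQ1 124 ± 7.35 (n = 2), while HCT116+JQ1 had 274 ± 16.7 and control cells 499 ± 70.1. Its part in the members' levels was not tested.

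In DKO against control, 53 of 55 members were called lower and 1 higher. Without NOP2 and NPM1, whose counts are not read as expression in DKO, 52 of 53 members fell and 0 rose, with a median log2 fold change of -0.34. Across all tested genes 32.1% were lower and 29.5% higher, with a median of -0.02. Of the 42 unmarked members 41 fell and 0 rose, against 27.4% lower and 37.4% higher among the 10579 tested genes with little shared sequence. In each subline 51 of the 53 members fell and 0 rose, where the background was 28.9% lower and 27% higher in DKO-C1 and 30.5% lower and 28.4% higher in DKO-C2. Of the unmarked members, 40 of 42 fell in each subline, against 24.9% lower and 34.2% higher in DKO-C1 and 25.7% lower and 36.4% higher in DKO-C2 among the genes with little shared sequence. Of the 111 other pathway genes 88 were lower and 4 higher. Processed pseudogenes lose counts in the same libraries, and their part in the members' falls was not tested beyond the count of unmarked members. Unmarked members include some with exon overlaps on the opposite strand or with pseudogene copies, and the part of these was not tested.

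RNA polymerase I genes fell in DKO as a whole class, 7 of 7, with a median of -0.46, and 6 of 6 did without the marked RRN3. POLR1B, the second-largest polymerase subunit (chr2:112541915-112577150, plus strand), had 83.6, 86.3 and 83.3 CPM in DKO-C1 and 73.9, 70.1 and 71.1 CPM in DKO-C2, against 121, 137 and 127 CPM in control cells (-0.72 ± 0.0426, adjusted p = 1.82e-17, edgeR). The DKO libraries all lay below the control libraries, and DKO-C2 below DKO-C1. POLR1C, a subunit shared with RNA polymerase III (-0.64), POLR1E (-0.62) and TCOF1, the nucleolar protein treacle that assists polymerase I (-0.46), fell as well. POLR1A, the largest subunit (-0.30), UBTF, which binds ribosomal DNA (-0.21), and RRN3 (-0.18) had the smallest falls of the class.

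All 3 box C/D proteins fell in DKO, NOP56 by 0.54 on the log2 scale, FBL by 0.49 and NOP58 by 0.30, of which only FBL is unmarked. FBL had 215, 219.9 and 222 CPM in DKO-C1 and 210.1, 242 and 218 CPM in DKO-C2, against 296, 320.1 and 317 CPM in control cells, with no overlap. The 4 box H/ACA proteins, 3 of them unmarked, fell as well, with GAR1 at -0.36 and the marked DKC1, the pseudouridine synthase dyskerin, at -0.24. NOP10 (-0.20) was called in DKO-C1 and not in DKO-C2, where replicate b had 80.2 CPM, above every control library.

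Among small subunit factors 14 of 15 fell, and 13 of 14 without the marked HEATR1. NAT10, the acetyltransferase of ribosomal RNA (chr11:34105602-34147670, plus strand), had 150.1, 151 and 148 CPM in DKO-C1 and 151, 149.8 and 157 CPM in DKO-C2, against 232, 257 and 246 CPM in control cells (-0.69 ± 0.0363, adjusted p = 4.15e-19, edgeR). No DKO library came near the control range. HEATR1, a processome protein that also serves polymerase I transcription, fell by 0.58 on the log2 scale and RRP9, a protein of the snoRNP that directs early cleavage, by 0.53. The one member of all 55 that was not called was BYSL, a late-acting small subunit factor, with 60.8, 58.04 and 62.8 CPM in DKO-C1 and 59.9, 61.9 and 58.2 CPM in DKO-C2, against 54.4, 67.5 and 59.5 CPM in control cells (-0.00 ± 0.0520, adjusted p = 0.96, edgeR).

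All 19 large subunit factors other than NOP2 fell in DKO, 13 of 13 unmarked ones among them. PES1, which with BOP1 and WDR12 forms a complex needed for the large subunit, fell by 0.68 on the log2 scale, WDR12 by 0.43 and BOP1 by 0.35. PES1 had 137, 144 and 148 CPM in DKO-C1 and 140.5, 165 and 146 CPM in DKO-C2, against 214, 249.97 and 243 CPM in control cells, with no overlap. NLE1, a late large subunit factor, fell by 0.63 and NOP16, a nucleolar protein, by 0.55. In the nucleolar scaffold class NOLC1 (-0.58) and NCL (-0.44) fell, as did LYAR and MYBBP1A (-0.23 each). DDX21, an RNA helicase, was at -0.23 over both sublines, called at -0.35 in DKO-C2 and not called at -0.12 in DKO-C1 (edgeR, adjusted p = 0.0622). It had 610.5 to 653.5 CPM in DKO-C1 and 493.3 to 557.7 CPM in DKO-C2, against 624.2 to 718.4 CPM in control cells, so that DKO-C1 alone overlapped with control.

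**Figure D3:**
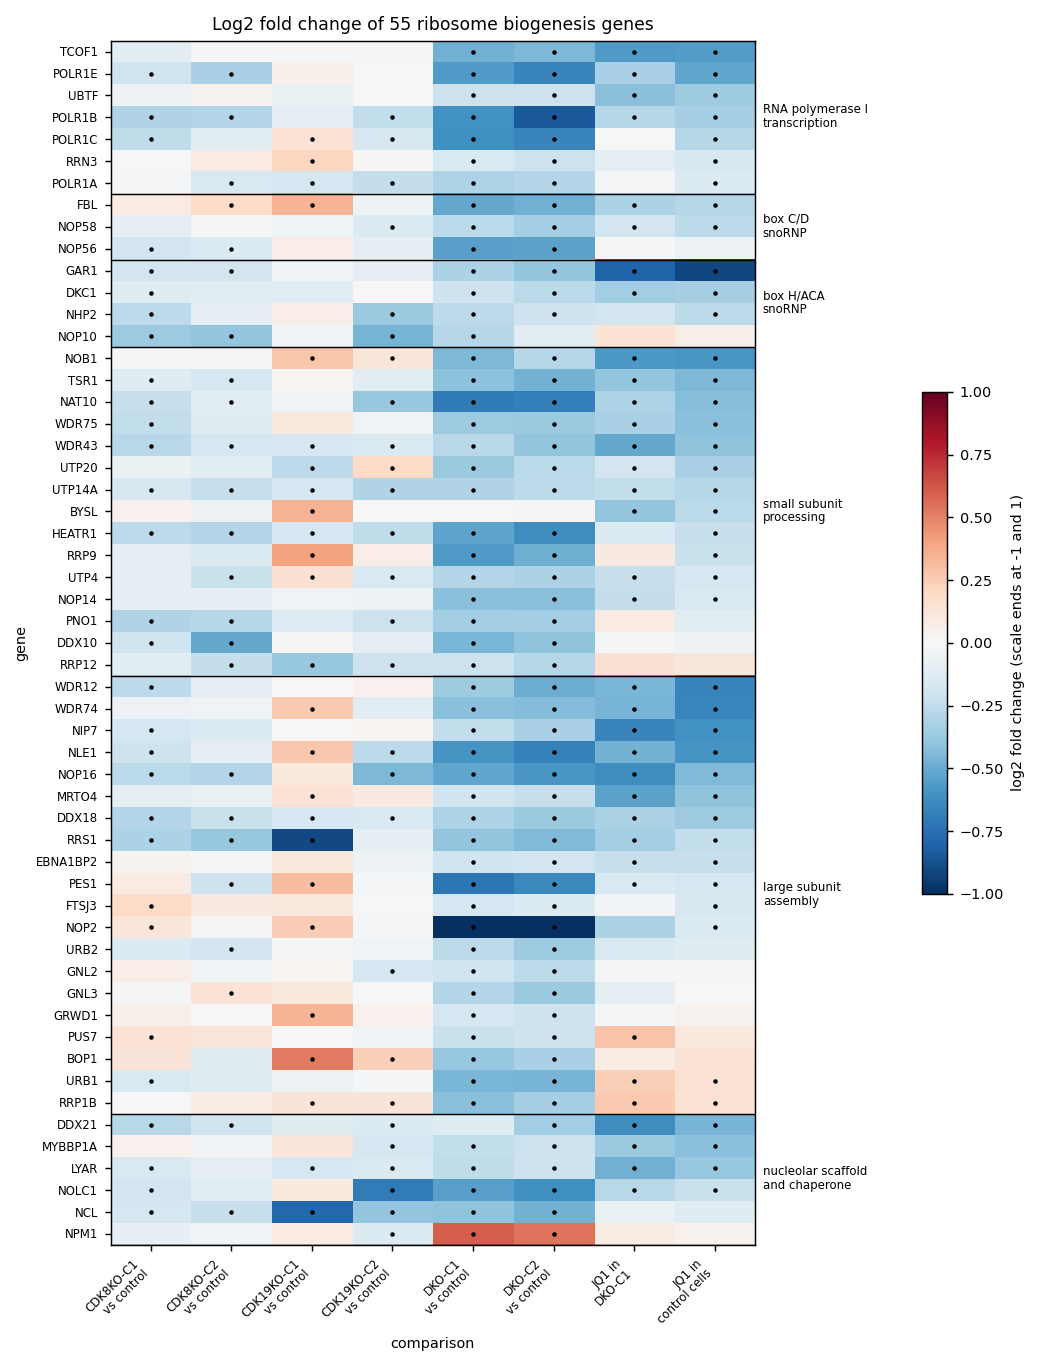
Log2 fold change of each of the 55 members (rows, by role) for each knockout subline against control and for JQ1 in DKO-C1 and in control cells (columns), with colours ending at -1 and 1 and a dot where edgeR called the gene. The DKO columns are negative for nearly all members, the JQ1 columns for most, and CDK19KO-C1 and CDK19KO-C2 differ from each other.

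JQ1 in control cells lowered 40 of 55 members and raised 2, with a median of -0.26. The background was 29.1% lower and 27% higher, with a median of -0.02 over all tested genes. All 7 RNA polymerase I genes fell (median -0.33), as did 12 of 15 small subunit factors (-0.27), 12 of 20 large subunit factors (-0.17), 3 of 4 box H/ACA proteins, 2 of 3 box C/D proteins and 4 of 6 nucleolar scaffold genes. Of the 111 other pathway genes 62 were lower and 13 higher, with a median of -0.18. Among these, 9 of 14 genes of the RNA exosome, which trims and degrades precursor RNA, were lower.

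GAR1, a core protein of box H/ACA snoRNPs (chr4:109815510-109824740, plus strand), had the largest fall. It had 29.9, 30.7 and 32.02 CPM with JQ1, against 58.4, 59.8 and 55.8 CPM without (-0.91 ± 0.0590, adjusted p = 1.05e-15, edgeR). The groups did not overlap, and the treated cells held 53.2% of the control level. Among the other proteins of the same particle DKC1 fell by 0.33 on the log2 scale and NHP2 by 0.26, while NOP10 had 83.4, 67.9 and 70.6 CPM with JQ1, against 65.9, 75.9 and 70.9 CPM without, and was not called (0.06, edgeR adjusted p = 0.552).

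WDR12 had 62.8, 71.2 and 74.4 CPM with JQ1, against 110.03, 113 and 107 CPM without (-0.66 ± 0.0579, adjusted p = 3.16e-12, edgeR). WDR74, a large subunit factor marked for overlap, had 43.6, 43.01 and 44.1 CPM with JQ1, against 60.4, 73.7 and 70.9 CPM without (-0.65 ± 0.0632, adjusted p = 4.52e-11, edgeR). Neither gene's treated libraries overlapped with the control libraries. Of WDR12's partners, PES1 fell by 0.17 on the log2 scale, and BOP1 was at 0.13 (edgeR, adjusted p = 0.0662). NIP7 (-0.60), NLE1 (-0.59) and NOB1 (-0.58), the endonuclease that matures small subunit RNA, and TCOF1 (-0.56) were the next largest falls.

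RRP1B and URB1, large subunit factors, were the 2 members that JQ1 raised. RRP1B had 219, 226 and 226 CPM with JQ1, against 189, 218 and 198 CPM without (0.15 ± 0.0481, adjusted p = 0.00891, edgeR). URB1 had 134, 142 and 154 CPM with JQ1, against 121, 137 and 132 CPM without (0.14 ± 0.0536, adjusted p = 0.0231, edgeR). RRP1B showed no overlap and URB1 did. Neither was called without control replicate 1 (0.10 and 0.09), and URB1 was not called without HCT116+JQ1 replicate 3 (0.09). With ERCC factors both turned to falls.

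JQ1 in DKO-C1 gave 32 members lower and 3 higher, with a median of -0.24, against a background of 25.4% lower and 24.9% higher. Of the other pathway genes 56 of 111 were lower and 11 higher. GAR1 again had the largest fall, with 26.8 and 26.8 CPM with JQ1, against 47.9, 45.5 and 46.4 CPM without (-0.80 ± 0.0689, adjusted p = 2.83e-12, edgeR). NIP7, a large subunit factor, had 62 and 54.9 CPM with JQ1, against 99.3, 88.3 and 89.7 CPM without (-0.66 ± 0.0678, adjusted p = 1.89e-10, edgeR). In both genes the treated libraries lay below all untreated ones, and with GAR1 at 26.8 CPM, below every other library of the series. PUS7, a pseudouridine synthase, had 84.5 and 86.6 CPM with JQ1, against 71.3, 70.8 and 67.97 CPM without (0.29 ± 0.0564, adjusted p = 4.52e-05, edgeR), and RRP1B rose as well (0.26 ± 0.0543, adjusted p = 0.000103, edgeR), with URB1 (0.24) as the third.

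The difference between the JQ1 responses, DKO-C1 minus control cells, was called for 2 of 55 members, both higher, and for 0 lower. The background was 3.9% higher and 4.7% lower, so that 2 of 55 is near the rate over all genes. RRP9 had 57.2 and 54.5 CPM with JQ1 and 50.98, 53.1 and 53.4 CPM without in DKO-C1, and 68.9, 63.7 and 66.8 CPM with JQ1 and 69.7, 81.3 and 82.1 CPM without in control cells. POLR1C had 35.8 and 35.6 CPM with JQ1 and 36.3, 36.3 and 34.4 CPM without in DKO-C1, and 48.05, 43.7 and 42.3 CPM with JQ1 and 51.7, 55.6 and 56.2 CPM without in control cells. Both fell in control cells (-0.22 and -0.29) and were not called in DKO-C1 (0.09 and 0.00). The differences were 0.31 ± 0.0954, adjusted p = 0.0317 for RRP9 and 0.29 ± 0.0914, adjusted p = 0.0394 for POLR1C (edgeR), and leaving out any of 7 libraries ended the call of RRP9 and any of 8 that of POLR1C. DKO-C1 with JQ1 has 2 libraries, so most of the 53 members that were not called could differ by an amount this design does not resolve.

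**Figure D4:**
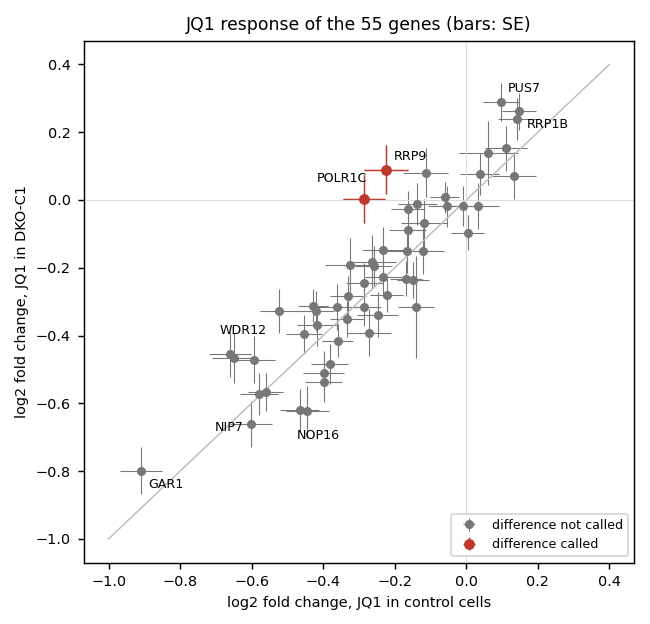
Log2 fold change of the 55 members under JQ1 in DKO-C1 (vertical) and in control cells (horizontal), with bars of 1 SE and the line of equal response. GAR1 is lowest on both axes, and RRP9 and POLR1C, in red, are the 2 members whose responses differed.

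In CDK8KO against control, 30 of 55 members fell and 3 rose, with a median of -0.14, where 21% of all tested genes were lower and 19.5% higher. Per subline, 27 were lower and 3 higher in CDK8KO-C1, against 19.4% and 19.8% of all genes, and 22 lower and 2 higher in CDK8KO-C2, against 17.2% and 16.8%. Of the other pathway genes 62 of 111 were lower and 10 higher, also with a median of -0.14. The falls covered 4 of 4 box H/ACA proteins, 10 of 15 small subunit factors, 4 of 6 nucleolar scaffold genes, 3 of 7 RNA polymerase I genes, 8 of 20 large subunit factors and 1 of 3 box C/D proteins.

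NOP10 had the largest fall. Its 6 CDK8KO libraries ran from 52.6 to 56.1 (median 54.8) CPM, against 65.9, 75.9 and 70.9 CPM in control cells (-0.38 ± 0.0723, adjusted p = 4.96e-05, edgeR). DDX10, an RNA helicase of the small subunit pathway, had 102, 103 and 107 CPM in CDK8KO-C1 and 81.1, 85.7 and 84.2 CPM in CDK8KO-C2, against 117, 125 and 115 CPM in control cells (-0.35 ± 0.0457, adjusted p = 7.13e-08, edgeR). RRS1, which helps to place the small RNA of the large subunit, ran from 60.2 to 63.95 (median 61.9) CPM in CDK8KO, against 70.3, 85.5 and 80.9 CPM in control cells (-0.35 ± 0.0495, adjusted p = 4.41e-07, edgeR). None of these 3 overlapped with control, and DDX10 was lower in CDK8KO-C2 than in CDK8KO-C1.

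The 3 members that rose did so by little. FTSJ3, a methyltransferase of precursor RNA, ran from 186 to 208 (median 192) CPM in CDK8KO, against 162, 184 and 182 CPM in control cells (0.15 ± 0.0413, adjusted p = 0.00447, edgeR). FBL ran from 319 to 365 (median 341) CPM, against 296, 320.1 and 317 CPM in control cells (0.13 ± 0.0408, adjusted p = 0.00806, edgeR). PUS7 ran from 85.6 to 91.9 (median 89.1) CPM, against 80.9, 81.3 and 82.5 CPM in control cells (0.13 ± 0.0436, adjusted p = 0.0176, edgeR). FBL overlapped with control and FTSJ3 and PUS7 did not. Without control replicate 1, at 0.09, 0.10 and 0.12, none of the 3 was called, and PUS7 was not called without control replicate 2 (0.13). With ERCC factors all 3 were falls.

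CDK19KO against control gave 17 members lower and 11 higher with a median of -0.03, where 22% of all tested genes were lower and 21% higher, a split near that of all genes. The sublines went different ways. In CDK19KO-C1 15 members were higher and 10 lower, against 22.1% and 24% of all genes, and in CDK19KO-C2 4 were higher and 23 lower, against 21.8% and 20.6%. Of the other pathway genes 36 of 111 were lower and 20 higher over both sublines.

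Set against each other, 27 members were higher in CDK19KO-C1 than in CDK19KO-C2 and 4 lower, with a median of 0.11, where the background was 23.8% higher and 24.2% lower. Among the other pathway genes 49 of 111 were higher and 7 lower. The differences ran through every class, with 10 of 20 large subunit factors, 7 of 15 small subunit factors and 3 of 7 RNA polymerase I genes higher in CDK19KO-C1. NOLC1 (chr10:102152176-102163871, plus strand) had 866, 902 and 858 CPM in CDK19KO-C1, against 506, 501 and 506 CPM in CDK19KO-C2 (0.79 ± 0.0460, adjusted p = 4.91e-17, edgeR). RRS1 went the other way, with 39.4, 42.7 and 44.2 CPM in CDK19KO-C1, against 70.4, 75.1 and 75.1 CPM in CDK19KO-C2 (-0.81 ± 0.0603, adjusted p = 7.35e-14, edgeR). In both genes the libraries of the sublines were far apart, and control cells, at 769.8, 860.4 and 825 CPM for NOLC1 and 70.3, 85.5 and 80.9 CPM for RRS1, lay close to 1 subline only, CDK19KO-C1 for NOLC1 and CDK19KO-C2 for RRS1.

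Over both sublines, the largest fall in CDK19KO was that of NCL (chr2:231453531-231483641, minus strand), with 1531, 1494 and 1218 CPM in CDK19KO-C1 and 1736, 1798 and 2003 CPM in CDK19KO-C2, against 2297, 2513 and 2484 CPM in control cells (-0.59 ± 0.0537, adjusted p = 2.51e-11, edgeR). Both sublines lay below control, CDK19KO-C1 further. The falls of RRS1 (-0.50 ± 0.0498, adjusted p = 1.96e-10, edgeR) and NOLC1 (-0.30 ± 0.0391, adjusted p = 8.12e-08, edgeR) were each called in 1 subline alone, since RRS1 was not called in CDK19KO-C2 alone (-0.10, adjusted p = 0.16) and NOLC1 was at 0.10 in CDK19KO-C1 alone (adjusted p = 0.081).

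BOP1, the scaffold of the PES1 complex, rose most in CDK19KO, with 363, 367 and 383 CPM in CDK19KO-C1 and 315, 302 and 301 CPM in CDK19KO-C2, against 239, 278 and 259 CPM in control cells (0.38 ± 0.0545, adjusted p = 5e-07, edgeR). NOB1 had 137, 145 and 139 CPM in CDK19KO-C1 and 125, 129.5 and 124 CPM in CDK19KO-C2, against 111, 118 and 118 CPM in control cells (0.20 ± 0.0444, adjusted p = 0.000333, edgeR). Both were above all control libraries in both sublines. RRP9 (0.23 ± 0.0532, adjusted p = 0.000485, edgeR) had 97.7, 102 and 108 CPM in CDK19KO-C1 and 80.1, 83.7 and 80.7 CPM in CDK19KO-C2, against 69.7, 81.3 and 82.1 CPM in control cells, and CDK19KO-C2 alone overlapped with control and was not called (0.07, adjusted p = 0.387). NOP2, low in DKO, was at 0.12 ± 0.0426, adjusted p = 0.0246 in CDK19KO and 0.07 ± 0.0426, adjusted p = 0.205 in CDK8KO (edgeR), and its call in CDK19KO was lost without control replicate 1 (0.08) or CDK19KO-C2 replicate 1 (0.11). With ERCC factors the rises of BOP1, NOB1, RRP9 and NOP2 were falls.

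**Figure D5:**
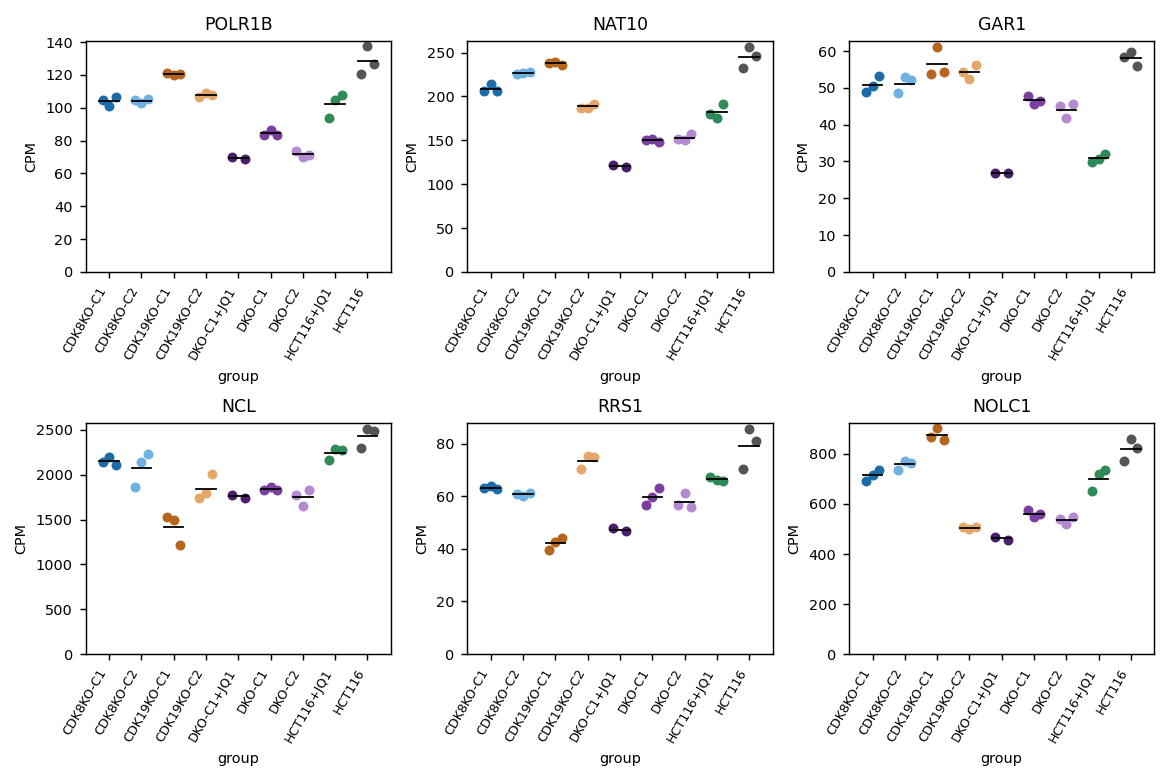
CPM of POLR1B, NAT10, GAR1, NCL, RRS1 and NOLC1 by group, 1 point per library, with lines at the group means. POLR1B and NAT10 are low in the DKO groups, GAR1 in both JQ1-treated groups, and NCL, RRS1 and NOLC1 differ between the CDK19KO sublines.

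CDK8KO against CDK19KO does not cross the spike-in label. 26 members were lower in CDK8KO and 7 higher, with a median of -0.09, where 23.4% of all tested genes were lower and 23.6% higher, and 50 of 111 other pathway genes were lower and 12 higher. Large subunit factors made up 12 of the lower members. BOP1 (-0.38 ± 0.0439, adjusted p = 4.43e-09, edgeR) ran from 237 to 288 (median 259) CPM in CDK8KO, against 301 to 383 (median 339) CPM in CDK19KO, and RRP9 (-0.36 ± 0.0434, adjusted p = 1.14e-08, edgeR) from 69.1 to 74.02 (median 70.8) CPM in CDK8KO, against 80.1 to 108 (median 90.7) CPM in CDK19KO. Neither gene overlapped. NCL was higher in CDK8KO (0.39 ± 0.0448, adjusted p = 4.05e-09, edgeR), at 1866 to 2228 (median 2140) CPM in CDK8KO, against 1218 to 2003 (median 1633) CPM in CDK19KO, with overlap. RRS1 was higher in CDK8KO as well (0.15 ± 0.0421, adjusted p = 0.00258, edgeR), but its CDK8KO libraries lay between those of CDK19KO-C1 and CDK19KO-C2. As the CDK19KO sublines differed from each other in 31 of 55 members, these differences carry that spread. With ERCC factors the falls of BOP1 and RRP9 turned to 0.06 and 0.08, and 50 members were higher and 0 lower. Under these factors all genes of a library shift together, so this count is not read as a result about the members.

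The sublines of the other genotypes were closer by the count of members called, which rests on the spread pooled over all libraries. CDK8KO-C1 was higher than CDK8KO-C2 in 3 members and lower in 4 (background 11.5% and 9.63%), with DDX10 (0.31 ± 0.0541, adjusted p = 3.14e-05) as the largest rise and WDR12 (-0.17 ± 0.0569, adjusted p = 0.034, both edgeR) as the largest fall. WDR12 had 91.6, 90.9 and 92.6 CPM in CDK8KO-C1, against 100.4, 105 and 103 CPM in CDK8KO-C2, without overlap, yet its call was lost in 5 of 6 cases when 1 library was left out. The count of 7 fell to 4 without any of CDK8KO-C1 replicates 1, 2 and 3 or CDK8KO-C2 replicate 2. It rose well above 7 when only the libraries compared were fitted, as given in the last section. The closeness of the CDK8KO sublines by this count thus depends on the pooled spread. DKO-C1 was higher than DKO-C2 in 2 members and lower in 1 (background 3.67% and 5.75%), and the count of 3 became 5 without DKO-C2 replicate a. POLR1B (0.24 ± 0.0516, adjusted p = 0.00178, edgeR) was higher in every DKO-C1 library than in any of DKO-C2. NOB1 (-0.16 ± 0.0525, adjusted p = 0.0414, edgeR) had 82.6, 82.6 and 88.4 CPM in DKO-C1, against 87.4, 103 and 93.7 CPM in DKO-C2, with overlap, and was at -0.10 and not called without DKO-C2 replicate b. Over all genes, that replicate stood apart from DKO-C2 replicates a and c. The chi-square per degree of freedom of their counts was 11.87 and 9.743, against 2.144 between a and c. Other groups were not uniform either. HCT116+JQ1 replicates 1 and 3 were at 9.383, CDK19KO-C1 replicates 1 and 3 at 7.319 and control replicates 1 and 2 at 4.863. The closest pair, CDK8KO-C1 replicates 1 and 2, was at 1.38.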

How the data were processed

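The deposited table holds raw counts per gene, which the authors made from paired reads of 100 bases. Per the submitters' processing notes, reads were aligned to hg38 with STAR 2.5.2 and counted with featureCounts of Subread 1.6.3. No source used here gives the strand setting or the annotation release. Of 26 columns, 22 matched 1 sample each and 4 a group only. 3 of these carry clone number 3 for DKO, which no title has, and were taken as DKO-C2 by elimination (replicates a, b and c). The fourth is a DKO-C1+JQ1 column (replicate a). 0 columns of per-sample values were left unused.

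Counts were fitted with edgeR 4.0.16 (R 4.3.3) in 1 quasi-likelihood model that held all libraries and 9 group terms. Genes passed filterByExpr (minimum count 10, minimum total 15), and TMM factors ran from 0.956 to 1.02. Genotypes are means of 2 sublines. Shared sequence was measured in 50-base words (1 in 8 used) on GENCODE release 29, and unmarked members share under 10% and overlap no exon on their strand. Promoters came from RefSeq (GRCh38.p14), and 45 of 55 members matched. Alternatives used DESeq2 1.42.0, limma 3.58.1 (voom), other filters, ERCC factors, fewer libraries and a replicate block. The fit was tested on simulated data.

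The members, their classes and the lists were chosen with earlier results of these data known. Values per library were printed for NOP2, the 3 largest called rises and falls against control or under JQ1 in control cells, the 2 largest for CDK8KO against CDK19KO, for JQ1 given to DKO-C1 and for the contrast of both JQ1 responses, and the largest between sublines. Other members were named after their values were seen. Values per library outside this rule, such as those of PES1 and BYSL in DKO, were also printed after they were seen. Groups of 2 or 3 libraries limit the precision.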

Additional observations from a re-analysis of the deposited data

Results flagged for a closer look

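8 differences between groups under the same contrast are listed for the members, each tested with edgeR. In 3 of the 4 contrasts the members were called about as often as all tested genes or less: 2 of 55 for the JQ1 responses (3.9% higher and 4.7% lower over all genes), 7 of 55 for the CDK8KO sublines (11.5% and 9.63%) and 3 of 55 for the DKO sublines (3.67% and 5.75%). In the fourth, the CDK19KO sublines, 31 of 55 were called, 27 higher and 4 lower. Over all genes 8247 of 17198 were called there (23.8% higher and 24.2% lower). The members' total was thus a little above that of all genes, and they differed mainly in direction. The JQ1 response in DKO-C1 minus that in control cells was 0.31 for RRP9 and 0.29 for POLR1C on the log2 scale (adjusted p = 0.0317 and 0.0394), both lower with JQ1 in control cells and not called in DKO-C1. CDK8KO-C1 differed from CDK8KO-C2 by 0.31 for DDX10 and by -0.17 for WDR12. CDK19KO-C1 differed from CDK19KO-C2 by 0.79 for NOLC1 and by -0.81 for RRS1, the largest differences between sublines of 1 genotype among the 55 members in either direction. DKO-C1 differed from DKO-C2 by 0.24 for POLR1B and by -0.16 for NOB1. The differences of WDR12, NOB1, RRP9 and POLR1C each lost their call when some single libraries were left out.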

How the results depend on the processing

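Of the counts of members called, those for DKO against control and for both JQ1 comparisons stayed within 1.5 times of the reported count under every alternative run. ERCC factors moved the others: 55 members were called in CDK8KO and 55 in CDK19KO, all lower, 50 in CDK8KO against CDK19KO, all higher, 0 in CDK8KO-C1 against CDK8KO-C2, 5 in CDK19KO-C1 against CDK19KO-C2, 0 in DKO-C1 against DKO-C2 and 0 for the difference of JQ1 responses. They turned the direction of PUS7 (-1.09), FTSJ3 (-1.07), FBL (-1.09) and NOP2 (-1.15) in CDK8KO, of RRP9 (-1.42), BOP1 (-1.28), NOB1 (-1.45) and NOP2 (-1.53) in CDK19KO, of NPM1 (-0.33) in DKO, of RRP9 (0.077) and BOP1 (0.057) in CDK8KO against CDK19KO, of URB1 (-0.23) and RRP1B (-0.22) under JQ1 in control cells and of RRP1B (-0.003) in DKO-C1. By these factors' construction all genes of a library shift together, so the ERCC counts are not read as results about the members. In DKO and both JQ1 comparisons that shift was downward, the direction of most called members, so their steady counts under ERCC factors show little. With 54 and 42 of 55 members called in DKO and under JQ1 in control cells, these 2 counts could not have risen to 1.5 times. For the alternatives, shares over all tested genes are not given beside the counts of members. A change in such a count can therefore not be told from a change over all genes, and is not read as a result about the members. Each subline alone turned NOLC1 (0.10 in CDK19KO-C1) and NOP2 (-0.014 in CDK19KO-C2). With only the libraries compared, 21 members differed between CDK8KO-C1 and CDK8KO-C2 and 0 between the JQ1 responses, and with no filter on low counts 1 did; the cause was not tested. When 1 library was left out, the counts ranged from 23 to 34 in CDK8KO (reported 33), 20 to 27 in CDK19KO (28), 53 to 54 in DKO (54), 27 to 34 in CDK8KO against CDK19KO (33), 4 to 5 in CDK8KO-C1 against CDK8KO-C2 (7), 27 to 31 in CDK19KO-C1 against CDK19KO-C2 (31), 2 to 5 in DKO-C1 against DKO-C2 (3), 40 to 43 under JQ1 for control cells (42), 31 to 36 under JQ1 for DKO-C1 (35) and 0 to 3 for the difference (2). Same-numbered libraries did not deviate together (70 pairs, r from -0.06 to 0.08), so no pairing by number was visible. The labels do not say whether such libraries were handled together, and these correlations cannot show it. With a replicate block the counts were 34 in CDK8KO, 28 in CDK19KO, 53 in DKO-C1, 36 in CDK8KO against CDK19KO, 10 and 34 between the CDK8KO and the CDK19KO sublines, 44 under JQ1 for control cells, 32 under JQ1 for DKO-C1 and 2 for the difference. The same numbered libraries with no block, an alternative chosen after seeing the data, gave 11 between the CDK8KO sublines and 1 for the difference. DKO-C1 against DKO-C2 could not be fitted with the block, as the DKO-C2 columns carry no matched number.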
